A study of Caenorhabditis elegans with 2 samples.

Results

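The genes described here decide sexual fate and equalise X-linked expression in Caenorhabditis elegans. They are sex-1, xol-1, sdc-1, sdc-2, sdc-3, her-1, dpy-21, dpy-27, dpy-28 and dpy-30, 10 of the 19973 protein-coding genes in the gene models. They were chosen by name, with earlier values of the regions at sex-1 and sdc-2 known, and each was given a window from 1000 bp upstream of its 5′ end to its end. The chromatin regions were selected on the place of their summit alone: each one in the authors' joint ranking with its summit in such a window was taken, which gave 110 of the 118176 regions ranked over the genome.

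The series asked where a tagged protein, named tag-97 in the labels, was found on chromatin. Whole worms of strain OP719 were collected as L4 larvae at an age of 66 hours, after starvation as L1 larvae had synchronised them. All of them carried the transgene wgIs719, which holds tag-97 fused to TY1, EGFP and 3xFLAG together with unc-119(+), in an unc-119 (tm4063) background. The labels give svh-5 as the targeted gene, and the sex of the animals was not collected. Chromatin was sonicated to 200 to 800 bp and precipitated with an antibody against GFP. There were 2 biological replicates of 1 group. A second group and a control precipitation were not analysed here, whole animals pool all tissues, and the fusion comes from a transgene.

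In worms with a pair of X chromosomes, X-linked signal genes such as sex-1 keep the switch gene xol-1 off. The sdc genes are then active, repress the autosomal gene her-1, whose secreted product promotes male fate, and bring the dosage compensation complex to both X chromosomes. That complex, a specialised condensin, lowers X-linked transcription. In worms with a single X, xol-1 is on, her-1 is expressed and the complex does not assemble on X.

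The region that stood out lay upstream of sex-1, whose product is a nuclear hormone receptor that represses xol-1. It is the only one of the 110 regions that the authors kept in their joint thresholded list of 321. The second sequence to be shown is the centre of the strongest region of the 10 genes by signal, in sdc-2, which the authors did not list. Those of dpy-21 and sdc-1, the next strongest, are given for comparison. Each is read from the RefSeq copy of WBcel235 along the gene's own strand, and capitals mark CTAGGC or its other strand GCCTAG, a word found to be frequent at listed regions in earlier results of these data.

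sex-1, whole region upstream (chrX:10206066-10206361, minus strand): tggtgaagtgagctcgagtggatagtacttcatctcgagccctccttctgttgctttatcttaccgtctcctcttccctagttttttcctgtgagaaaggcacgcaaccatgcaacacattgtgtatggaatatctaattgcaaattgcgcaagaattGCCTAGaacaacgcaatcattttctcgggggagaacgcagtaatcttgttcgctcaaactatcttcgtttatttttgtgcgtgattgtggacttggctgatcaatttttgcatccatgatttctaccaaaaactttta

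sdc-2, 50 bp to each side of the summit in a coding exon (chrX:11529204-11529304, plus strand): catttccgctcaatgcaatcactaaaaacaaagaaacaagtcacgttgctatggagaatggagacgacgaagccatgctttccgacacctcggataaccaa

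dpy-21, the same for its strongest region, in a coding exon (chrV:17939544-17939644, minus strand): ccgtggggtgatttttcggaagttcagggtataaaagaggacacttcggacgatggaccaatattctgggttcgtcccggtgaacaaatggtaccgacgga

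sdc-1, the same for its strongest region, in a coding exon (chrX:16278787-16278887, plus strand): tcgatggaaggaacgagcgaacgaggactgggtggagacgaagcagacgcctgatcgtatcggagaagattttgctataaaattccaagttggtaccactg

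CTAGGC was searched on both strands from 50 bp before to 50 bp after each summit, with GGCCTA, with which it can overlap, and CTGCGC. The sex-1 window held CTAGGC once. CTAGGC occurred in 3 of the 110 windows at these genes (2.73%), against 2.05% of all ranked windows and 8.72% of listed ones. In the raised segment of X that holds sex-1 and sdc-2, described further on, it occurred in 1.06% of ranked and 3.30% of listed windows. GGCCTA occurred in 2 and CTGCGC in 0 of the 110, and neither was in the sex-1 window. Of all ranked windows, 2.27% and 1.43% held them, and of listed ones 10.3% and 7.17%. These shares are descriptions of the windows, and a word here is not a binding site. The sex-1 window had a GC content of 44.6%, and the whole region 41.6%. The median window at the 10 genes had 38.6%, equal to the median of all ranked windows and below the 47.5% of listed ones. The strongest region of each of the 10 genes aligned to 1 place in the genome over at least 100 bp at 80% identity.

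A region's signal is the authors' own value from peak calling, on a scale that is not stated. The irreproducible discovery rate (IDR) is low for regions that rank consistently high in a pair of inputs. High values go to regions that differ between the inputs and also to regions that are weak in both. An example is the upstream region of dpy-30, with inputs of 4.36 and 3.71 and an IDR of 0.789. All listed regions had an IDR of at most 0.01. Of the 10 genes, 1 had a listed region in its window, and 1.29% of all protein-coding genes did. The gene was sex-1, and its place on X matters for how that count is read. It lies in a segment of X from 9.1 to 11.6 Mb in which ranked regions have raised signals, with sdc-2 in the same segment, and there 15.8% of protein-coding genes had a listed region. The shares were 0.727% on the rest of X and 1.04% on the autosomes. No gene of the 10 outside the segment had a listed region. In the conservative list, where the replicates were ranked against each other, 0 of the 10 genes had a region (0.791% of protein-coding genes), and the same held for the thresholded lists of replicate 1 (0.275%) and replicate 2 (0.305%). All 10 had at least 1 ranked region, as did 93.7% of protein-coding genes. Since the genes were chosen with these results known, the counts carry no test.

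**Figure D1:**
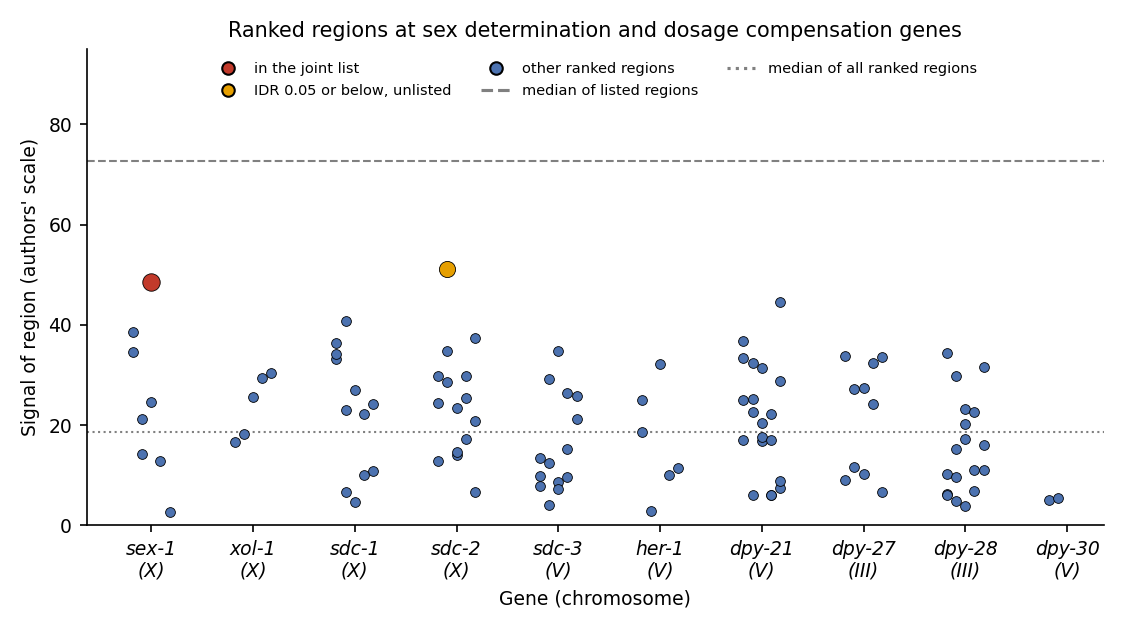
Signal of each of the 110 ranked regions (authors' scale) at the 10 genes, 1 point a region, with the medians of listed regions (dashed, 72.6) and of all ranked regions (dotted, 18.6). The single listed region is at sex-1 (48.6), the highest point is at sdc-2 (51.2), both below the dashed line, and both points of dpy-30 are near 5.

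Signals at the 10 genes ran from 2.74 to 51.2 with a median of 20.3, close to the 18.6 of all ranked regions. Coding exons held 56 of the regions (median 24.5), introns 38 (14.97), upstream sequence 11 (22.9), 3′ UTRs 4 (14.4) and 5′ UTRs 1 (22.2). The windows cover whole genes and only 1000 bp upstream. Shares of these classes over all ranked regions were not computed, so the counts show no preference for a class. An IDR of at most 0.05 was reached by 2 regions, 1.82% against 1.04% of all ranked regions, while 68 (61.8%, against 70.4%) had an IDR above 0.5. By location, the 23 regions of sex-1 and sdc-2 had a median of 24.4, where all ranked regions of the raised segment had 25.96. The 17 regions of xol-1 and sdc-1, on X outside the segment, had a median of 24.1 beside 18.6 for that part of X. The 70 regions of the 6 autosomal genes had 16.9, beside 18.5 for all autosomal regions.

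The X signal gene sex-1 (WBGene00004786, X:10201329-10205421, minus strand) had 8 ranked regions. Their signals, from upstream to the 3′ side, were 48.6, 14.3, 38.5, 2.74, 12.9, 24.6, 21.2 and 34.5. The listed region came first in that order and was the highest. Its summit lay 793 bp upstream of the annotated 5′ end, in a gap of 7347 bp that separates sex-1 from the next protein-coding gene, F44A6.3. In that gap a further 8 ranked regions followed beyond the window, none of them listed. The strongest, 4295 bp upstream of sex-1, had a signal of 39.3 and an IDR of 0.348. The others lay between 8.46 and 24.6. Of the ranked regions in the gap, the listed one was the closest to sex-1 and had the highest signal.

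The listed sex-1 region had a signal of 48.6 and an IDR of 0.00603. Of all ranked regions, 1.505% had a higher signal, and so did 11.5% of those in the raised segment. Among listed regions it was weak, as 299 of the 321 had a higher signal. A further 1479 regions with a higher signal were not listed. Its pair of input signals in the joint ranking, 34.6 and 32.6, was high for a region of this signal. Ranked regions with a signal within 3 units of it had a median smaller input of 19.8, and 9 of those 1389 were listed, with a median smaller input of 32.1. Conversely, 226 ranked regions had a smaller input at least as high as that of sex-1, and 168 of them were listed. The IDR is computed from such ranks, so these values describe the region's place in the joint ranking and are not separate evidence for it.

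The inputs of the joint ranking were not the replicates' own regions, as 0 of them recurred in the lists of replicate 1 or replicate 2. Seen in the replicates themselves, the sex-1 region was uneven. Replicate 1 had a region of signal 37.5 there, its summit 125 bp away, with 0.355% of that replicate's ranked regions higher. Replicate 2 had one of 17.2, its summit 55 bp away, with 31.9% of its regions higher. When the replicates were ranked against each other the region had an IDR of 0.202, and it was in neither replicate's thresholded list nor in the conservative list. The strongest region of replicate 2 at sex-1 was another one, with a signal of 26.98, 2633 bp downstream of the 5′ end. Within sex-1, the region 586 bp into the gene, in an intron, was the more even one. It had 24.2 in replicate 1 and 22.1 in replicate 2. Those replicate regions also overlapped the neighbouring joint region, whose summit lay at 360 bp. For the region at 586 bp, the IDR between the replicates, 0.146, was the lowest of any region at the 10 genes, although its joint IDR was 0.367.

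**Figure D2:**
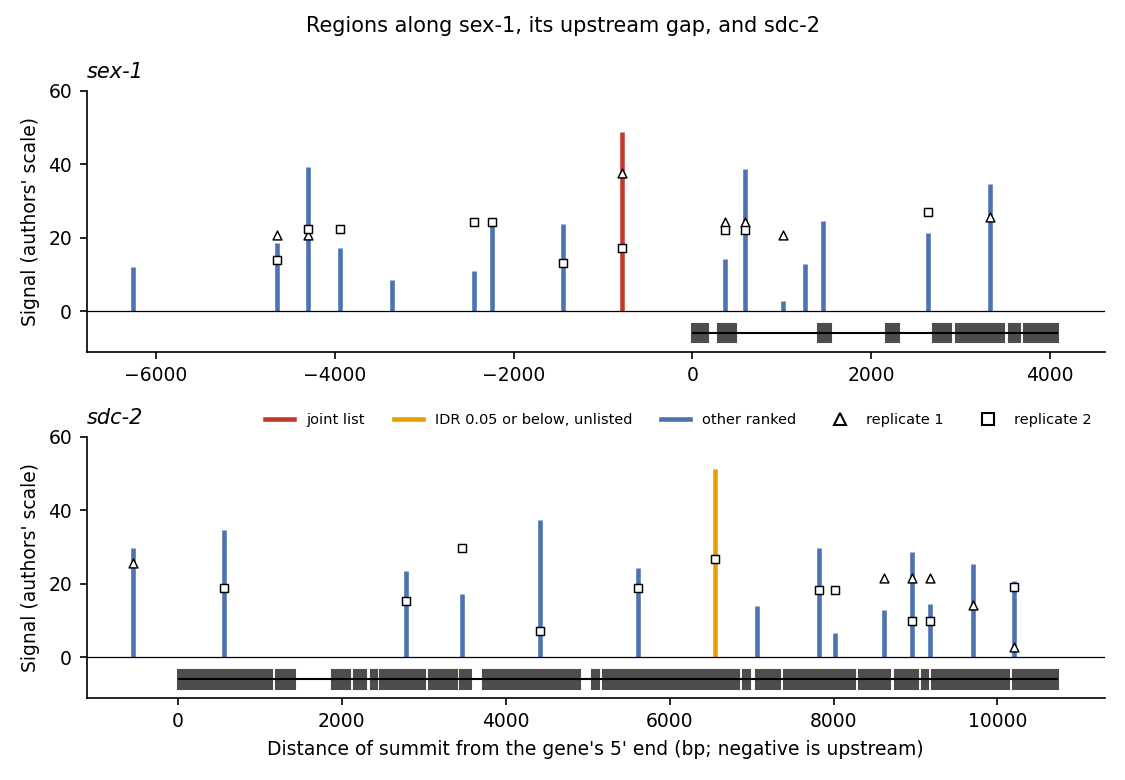
Signal (authors' scale) against distance of the summit from the 5′ end in bp for regions along sex-1 with its upstream gap, and along sdc-2, with exons as grey boxes. Bars are joint regions, and open triangles and squares are the overlapping regions of replicates 1 and 2, drawn at the joint summit. At sex-1 the tallest bar is the listed one 793 bp upstream, where the triangle (37.5) is far above the square (17.2); at sdc-2 the tallest bar (51.2) is inside a coding exon and has a square only.

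The switch gene xol-1 (WBGene00006962, X:8041313-8044409), which SEX-1 represses and whose product is related to GHMP kinases, had 5 ranked regions. Their signals were 16.6, 18.1, 25.7, 29.3 and 30.5 from the 5′ to the 3′ side. All 5 lay inside the gene, the last in the 3′ UTR, with IDRs between 0.441 and 0.572. None lay in the 1000 bp upstream, and none within 200 bp downstream, of the 5′ end; 80.6% of protein-coding genes had a ranked region in that promoter window. The nearest listed region was 4919 bp from the 5′ end and had a signal of 75.7. It fell in no protein-coding gene's window. Among protein-coding genes with any ranked region, 52.2% had a higher strongest region than xol-1. That place depends on the window, since with 2000 bp upstream the strongest signal at xol-1 was 46.1 in place of 30.5.

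The sdc genes encode zinc finger and coiled-coil proteins that recruit the dosage compensation complex to X and repress her-1. Of these, sdc-2 (WBGene00004746, X:11522707-11533450), the gene whose activity in worms with a pair of X chromosomes sets off dosage compensation, had the strongest region. It had 15 ranked regions with signals from 6.70 to 51.2. The strongest lay 6547 bp into the gene in a coding exon (chrX:11529106-11529401) with an IDR of 0.0227, outside the list. Its joint inputs were 27.3 and 28.4, as even as those at sex-1 but lower. Replicate 2 had a region of 26.7 there, and replicate 1 had none in its own ranked list. The between-replicate ranking nevertheless gave the region a replicate 1 input of 19.6 beside the 26.7 of replicate 2. Compared with 0.202 at the listed sex-1 region, the between-replicate IDR of this sdc-2 region was lower, at 0.157. Of protein-coding genes with a ranked region, 5.05% had a higher strongest region than sdc-2. Among the 138 with as many ranked regions as sdc-2, the share was 7.25%. In the raised segment, 9.19% of ranked regions had a higher signal than the strongest sdc-2 region. A listed region of signal 58.6 lay 6099 bp upstream of sdc-2, in the window of hpo-34. An IDR of at most 0.05, listed or not, was reached at 34.7% of protein-coding genes in the segment, 3.55% on the rest of X, 3.71% on the autosomes and 4.3% in all.

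The strongest regions of the other sdc genes were lower. At sdc-1 (WBGene00004745, X:16275763-16282534) the 12 regions ranged from 4.72 to 40.9, and the strongest, in a coding exon, had an IDR of 0.359. Its signal was 15.9 in replicate 1 and 18.97 in replicate 2, close to each other and both well inside the range of other regions. At sdc-3 (WBGene00004747, V:15039148-15048207) the 14 regions ranged from 4.07 to 34.8 with a median of 12.9. The strongest there was also in a coding exon, with 10.3 in replicate 1 and 19.8 in replicate 2. Upstream of the 5′ end the order was another one, with a highest signal of 33.2 at sdc-1, 29.8 at sdc-2 and 15.2 at sdc-3.

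The autosomal target her-1 (WBGene00001842, V:9697015-9702035) had 6 ranked regions, and none was upstream. Their signals were 18.6, 2.93, 32.2, 9.99, 11.4 and 25.0 from the 5′ to the 3′ side. The first 5 were in introns and the last in a coding exon. The strongest, 2630 bp into the gene, had an IDR of 0.416, a signal of 19.5 in replicate 1 and one of 8.05 in replicate 2. A higher strongest region was found at 45.3% of protein-coding genes with a ranked region, and the nearest listed region was 273345 bp away. An upstream region was also missing at xol-1 and dpy-28, and the share of her-1 that is intron was not computed.

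Among the 4 dpy genes, dpy-21 (WBGene00001080, V:17936282-17949193) had the highest value. DPY-21 is a JmjC histone demethylase that acts on H4K20 methylation on X. Its 20 regions ranged from 6.01 to 44.5, the strongest in a coding exon with an IDR of 0.121. That region had a signal of 31.3 in replicate 2, where 1.71% of regions were higher, and no counterpart in the ranked list of replicate 1. Of the 63 protein-coding genes with as many ranked regions, 42.9% had a higher strongest region, so the value was ordinary for a gene with that many.

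The condensin subunit genes dpy-27 and dpy-28 were lower than dpy-21. DPY-27, the SMC4 relative found in the dosage compensation complex, is encoded by dpy-27 (WBGene00001086, III:3813018-3819679), whose 10 regions ranged from 6.74 to 33.8. The strongest had uneven joint inputs of 30.4 and 4.82 and an IDR of 0.622, while the lowest IDR of the gene, 0.254, belonged to a region of 32.4. At dpy-28 (WBGene00001087, III:10763131-10777076), which encodes a HEAT-repeat subunit, the 18 regions ranged from 3.78 to 34.4. A strong listed region (155.9) lay 3890 bp upstream of dpy-28, in the windows of tasp-1 and K01G5.10 and outside the window of dpy-28. The gene dpy-28 itself had no ranked region in its 1000 bp upstream.

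At dpy-30 (WBGene00001088, V:12191519-12192385), which encodes a subunit shared with the H3K4 methyltransferase complex COMPASS, signal was lowest. Its 2 ranked regions had signals of 5.04 upstream and 5.44 in a coding exon, both with an IDR of 0.789. Neither replicate had a region of its own over either. Of the protein-coding genes with a ranked region, 99.7% had a higher strongest region, and the same share, 99.7%, held among the 2845 with 2 regions.

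**Figure D3:**
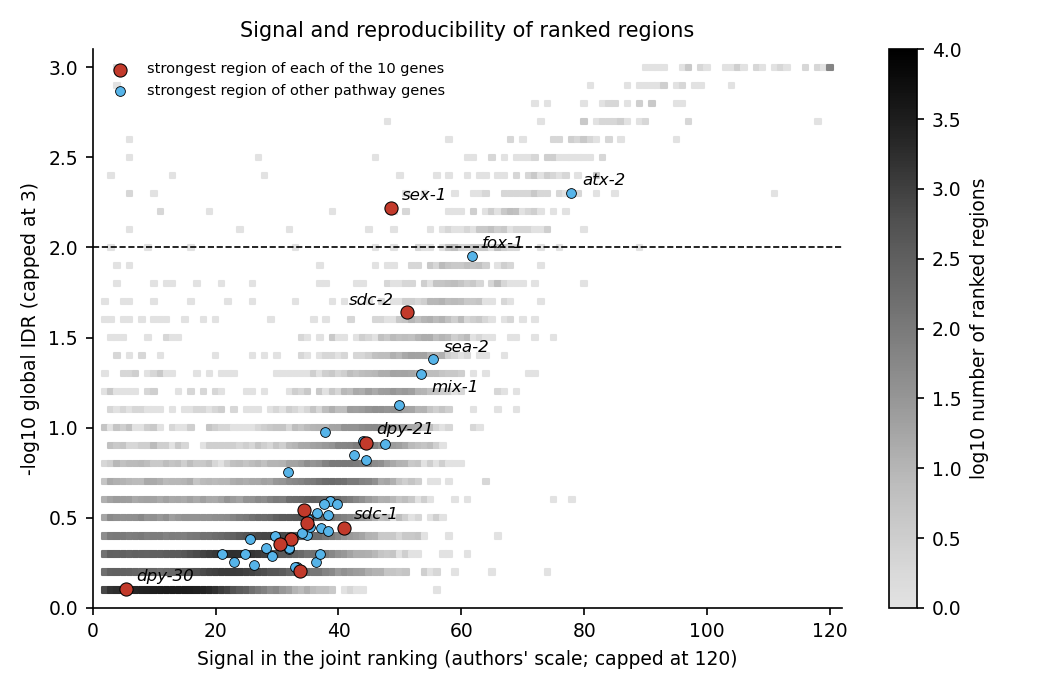
Signal in the joint ranking (x axis, capped at 120) against −log10 of the global IDR (y axis, capped at 3) for all ranked regions (grey, darker where more regions fall) and for the strongest region of each of the 10 genes (red) and of the other pathway genes (blue). Of the red points, only sex-1 (48.6, IDR 0.00603) is above the dashed line at an IDR of 0.01, to the left of most regions that high; sdc-2 (51.2) is below it, and the other red points are at or below dpy-21 (44.5).

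The replicates placed their strongest regions at different points in these genes. In 9 of the 10 genes both replicates had a ranked region of their own, and in 0 of the 9 did the strongest of one overlap the strongest of the other. Over protein-coding genes with a region in both, the share that overlapped was 35.4%, and among those with 5 to 20 ranked regions it was 25.8%. A lack of overlap was thus the more common outcome over protein-coding genes too. The distance between the replicates' strongest summits ran from 460 bp at dpy-27 to 4787 bp at dpy-21. At sex-1 it was 3551 bp, with 37.5 in replicate 1 at 918 bp upstream and 26.98 in replicate 2 inside the gene. At sdc-2 it was 4162 bp, with 25.6 in replicate 1 at 632 bp upstream and 29.9 in replicate 2 at 3530 bp into the gene. Of the 110 joint regions, 53.6% overlapped a region of replicate 1, 67.3% one of replicate 2 and 34.5% one of each. For all ranked regions these shares were 61.7%, 55.6% and 35.6%, and for listed regions 97.8%, 99.4% and 97.2%. Overlap with the own ranked lists of both replicates was thus about as common as for any ranked region. Overlap with replicate 1 alone counted was less common, and with replicate 2 more common. A region can lack such an overlap and still have an input from each replicate in the between-replicate ranking. Of the 110 regions, 86 had an entry in that ranking, and the share for all ranked regions is not given here.

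**Figure D4:**
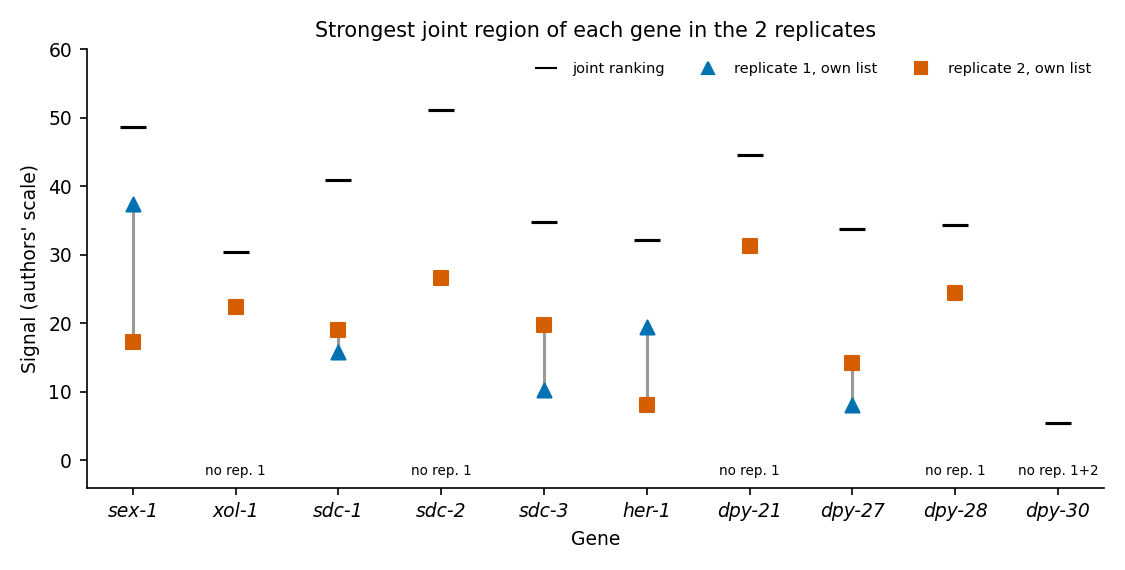
Signal (authors' scale) of the strongest joint region of each of the 10 genes (short line) and of the overlapping region in the ranked lists of replicate 1 (triangle) and replicate 2 (square), with genes that lack one marked below. The values are 37.5 and 17.2 at sex-1, xol-1, sdc-2, dpy-21 and dpy-28 have a square only, and dpy-30 has neither.

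Other genes of the pathway were taken as 4 lists by known function, 39 genes in all, of which 37 had a ranked region. The 2 without one, named after their values were seen, were fem-3 and puf-8. A listed region was found at 1 of the 39, and at 1.29% of all protein-coding genes. The median strongest signal was 36.4 over the 37 genes and 34.6 over the 10 described above, beside 31.0 over all protein-coding genes. Windows were longer too, with medians of 5070 and 7717 bp beside 3027 bp, and a longer window holds more regions from which the strongest is taken.

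The 9 other dosage compensation and X signal genes had windows with a median of 6294 bp, beside 3027 bp over all protein-coding genes. Of the 9, 0 had a listed region, as did 1.29% of all protein-coding genes. An IDR of at most 0.05 was reached at 2 of the 9 and at 4.3% of all protein-coding genes. The first of these 2 was fox-1, an RNA-binding X signal gene that acts on xol-1 (signal 61.7, IDR 0.0112, in an intron). The other was sea-2, an autosomal gene that opposes the X signal (55.4, IDR 0.0414, in a coding exon). There were 21 ranked regions at fox-1 and 36 at sea-2, beside a median of 4 over protein-coding genes. A low IDR thus had more regions in which to occur at both. The region at fox-1 was just outside the list, with 23.5 in replicate 1 and 29.9 in replicate 2, and was stronger and less uneven between replicates than the listed one at sex-1. Regions near the limit had similar signals on both sides of it, with a median of 60.8 for the 22 listed ones just inside and of 61.7 for the 35 just outside. After these came mix-1, an SMC2 condensin subunit gene (53.4, IDR 0.0501).

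The 12 somatic genes that act below her-1 had 0 listed regions and none with an IDR of at most 0.05. Of all protein-coding genes, 1.29% and 4.3% had such regions. The highest signals were at dmd-3, a DM-domain factor of male tail development (47.5), tra-2, the receptor of HER-1 (44.5), and fem-1, which promotes male fate (44.1). Among 14 germline genes the listed one was atx-2, the ataxin-2 gene (77.9, IDR 0.005), 63 bp upstream of its 5′ end and shared with the window of ecps-1. The replicates had 30.04 and 39.1 there, and their IDR against each other was 0.0109, so that it was not in the conservative list. Next were nos-1 (36.6) and rnp-8 (36.4). The 4 condensin genes outside the dosage compensation complex had 0 listed regions, and smc-4 (49.9), hcp-6 (38.2) and capg-2 (37.1) were highest, with smc-4 at an IDR of 0.0748.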

How the data were processed

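The deposited files are region lists on ce11, the build of the WBcel235 gene models (Ensembl release 115) used here. They comprise 8 lists, ranked and thresholded, for each replicate, for the replicates against each other (its thresholded form is called conservative) and for a joint ranking. Per the file listing deposited with them, the series lists derive from the alignments of both libraries; the sources used here name neither peak caller nor aligner. Signal, as deposited, is each region's own value on an unstated scale. The score deposited by the authors is 830 or more in the joint thresholded list, which here matched an IDR of at most 0.01. The ranked lists deposited by the authors hold the −log10 of the global IDR, turned back into an IDR here. Of the ranked regions, 75 at or below 0.01 were not listed, and the filter behind this is unstated. Nearly all ranked regions (99.99%) are 296 bp wide, so summits are approximate.

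Replicate signals were read from each replicate's own ranked list, as the highest region overlapping by at least 1 bp, with no scaling between replicates. The replicates' lists held 83890 and 68656 ranked and 70 and 71 thresholded regions. Depth per replicate is unknown, since read counts were not analysed here, so counting intervals are left out. The raised segment of X was derived from unlisted ranked regions: median signals of 100000 bp bins with at least 20 regions, exceeding the median bin by more than 3 scaled median absolute deviations, joined over at most 1 bin. A gene was placed in it by its midpoint. The 10 genes, the lists and the words were chosen with earlier results of these data known. Named genes are the 10, any pathway gene with a thresholded region and the 3 strongest of each list. There was no contrast between conditions and no test. The window step was tested on simulated data. Python 3.11.15, NumPy 2.4.6, pandas 2.3.3, matplotlib 3.10.9 and blastn 2.17.0 were used.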

Additional observations from a re-analysis of the deposited data

How the results depend on the processing

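Of the 10 genes, 1 had a listed region under the main settings, and it was sex-1 in each setting that kept it at 1. The count was 0 with a window of 500 bp upstream, which ends short of that summit, in the conservative list and among listed regions with an IDR of at most 0.001, and ranged from 0 to 0 with either replicate left out. It was 2 with all ranked regions of IDR at most 0.05. For the other 39 pathway genes the count of 1 became 3 at an IDR of at most 0.05 and 0 in the conservative list and at 0.001, and ranged from 0 to 0 with either replicate left out. For all protein-coding genes the 258 became 151 with promoter windows only, 859 at an IDR of at most 0.05, 52 at 0.001 and 158 in the conservative list, and ranged from 55 to 61 with either replicate left out. Leaving a replicate out here means that the other replicate's own thresholded list was counted. Those lists are shorter, with 70 and 71 regions beside 321 in the joint list. A window of 2000 bp upstream, overlap in place of summits and an IDR of 0.01 whether listed or not left all 3 counts within 1.5 times. The strongest signal of sex-1 became 38.5 with 500 bp upstream, and that of xol-1 46.1 with 2000 bp. With promoter windows only, it became 29.8 at sdc-2, 15.2 at sdc-3, 22.2 at dpy-21, 33.2 at sdc-1 and 27.3 at dpy-27, and xol-1, her-1 and dpy-28 had no region. No paired analysis was possible because the samples form 1 group. With 2 replicates of unknown depth, a region missing from a replicate's list cannot be called absent.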
